A study of Mus musculus with 4 samples.

Results

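The EGF-family ligands of the mesenchymal stromal cells (MSC) of the mouse intestine were followed as 6 genes, *Nrg1*, *Ereg*, *Areg*, *Hbegf*, *Btc* and *Tgfa*, of the 28692 genes measured. They were taken by symbol, with earlier results of these data known, and all 6 were listed in each matrix. Single cells came from the lamina propria, the connective tissue that supports the epithelium, of small intestine and colon of untreated 8 to 10 week old female C57BL6/Nrj mice. Each intestine gave 2 libraries from 2 independent experiments, each of 3 pooled mice, so a library is the unit of replication and no value belongs to a single animal. The outer muscle layer had been removed, and cells were sorted as live, Itgb1+ and negative for CD45, Ter119, CD31, BP3, EpCAM and L1CAM. MSC that express BP3 and cells of the outer muscle are thus outside these data. Values are given in the order small intestine 1, small intestine 2, colon 1 and colon 2, and as CPM, the UMIs (unique molecular identifiers, each standing for a captured transcript) of a gene per 1000000 UMIs of the class in the library.

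EGF-family ligands are made as membrane proteins and are cut free by the protease ADAM17, whose passage to the cell surface needs the iRhom proteins, or by ADAM10. The freed ligands bind receptors of the ERBB family: amphiregulin (*Areg*) and TGFα (*Tgfa*) bind EGFR, epiregulin (*Ereg*), betacellulin (*Btc*) and HB-EGF (*Hbegf*) bind EGFR and ERBB4, and neuregulin 1 (*Nrg1*) binds ERBB3 and ERBB4. In the gut they act on the epithelium, where EGFR signals drive crypt cell division and neuregulin 1 acts on stem and progenitor cells. *Areg*, *Ereg* and *Hbegf* are also known as genes that many cell types induce within minutes to hours of growth factor, inflammatory or stress signals.

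Genes of the family lay close to a stress gene in the genome. In GENCODE vM21 (build GRCm38), *Ereg* (chr5:91074622-91093646, + strand), *Areg* (chr5:91139599-91148432, + strand) and *Btc* (chr5:91357261-91402994, − strand) were 181.5, 246.5 and 464.1 kb beyond the end of *Cxcl1* (chr5:90891241-90893115, + strand), which encodes a chemokine for neutrophils. *Nrg1* (chr8:31814551-32884029, − strand) spanned 1069 kb and *Tgfa* was on chromosome 6. The bases before the start of *Areg* and *Cxcl1* are shown because *Areg* was higher in cells with *Cxcl1* in the comparisons that follow, and those of *Btc* because it was not. They are the 250 bases upstream of the RefSeq gene start, 5′ to 3′ on the gene's strand, in build GRCm38.p6, at chr5:91139349-91139598 (+), chr5:90890995-90891244 (+) and chr5:91402995-91403244 (−). Capitals mark matches to the motifs searched.
Areg: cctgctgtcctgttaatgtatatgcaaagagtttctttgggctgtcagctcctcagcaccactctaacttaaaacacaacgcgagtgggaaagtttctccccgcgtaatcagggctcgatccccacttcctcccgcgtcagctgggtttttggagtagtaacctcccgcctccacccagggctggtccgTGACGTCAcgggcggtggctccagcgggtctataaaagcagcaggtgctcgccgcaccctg
Cxcl1: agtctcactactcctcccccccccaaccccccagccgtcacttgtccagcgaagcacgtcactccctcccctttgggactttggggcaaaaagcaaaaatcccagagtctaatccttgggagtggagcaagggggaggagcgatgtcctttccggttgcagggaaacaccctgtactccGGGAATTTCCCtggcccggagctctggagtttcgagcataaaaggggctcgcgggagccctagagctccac
Btc: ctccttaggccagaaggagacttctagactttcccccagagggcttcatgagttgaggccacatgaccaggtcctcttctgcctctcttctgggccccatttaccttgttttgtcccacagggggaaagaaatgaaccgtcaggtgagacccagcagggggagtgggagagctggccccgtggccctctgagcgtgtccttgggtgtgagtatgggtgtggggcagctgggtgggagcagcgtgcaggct

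Motifs were searched on both strands. The window of *Areg* held 1 cAMP response element (TGACGTCA), ending 54 bases before the start, and none of the AP-1 motif (TGANTCA), the NF-kB consensus or the CArG box. The window of *Cxcl1* held NF-kB matches that overlap each other and end 61 and 62 bases before the start, and that of *Btc* held no match, as did that of *Tgfa*. Of 32851 RefSeq promoter windows of this length, 1.55% held the cAMP response element, 7.25% an NF-kB match, 6.75% an AP-1 match and 1.47% a CArG box. A match is a run of letters and not a bound site. *Ereg*, *Nrg1* and *Hbegf* were not matched in the promoter table.

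After filters on cells, 30685 cells remained, at 1828, 14350, 2399 and 12108 per library, from libraries of 14341443 to 52269372 UMIs. The median depth was 6965, 2734.5, 8810 and 3878 UMIs per cell, so small intestine 2 was the shallowest and both replicate 1 libraries had fewer but deeper cells. Libraries shared 0 to 8 cell barcodes, except small intestine 2 and colon 2, which shared 69. Cells were placed in classes by marker genes, none of them a ligand. There were 5065 PDGFRαhi fibroblasts (FB), 1215 smooth muscle cells (SMC) and 5188 CD81+ FB. The remaining 14673 FB are called PDGFRαlo FB, a name that here leaves out CD81+ FB. *Pdgfra*, at 2109, 1877, 917 and 647 CPM in PDGFRαhi FB, was at 161 to 238 CPM in both other FB classes. Genes kept to check the PDGFRαlo name (*Fgfr2*, *Adamdec1*, *Igfbp5*, *Cd34*, *Cxcl14*, *Thy1*, *Pparg*) summed to 9500 and 8027 CPM in PDGFRαlo FB of the small intestine against 4185 and 3988 CPM in PDGFRαhi FB, but in the colon to 6710 and 4189 CPM against 6778 and 4927 CPM, where they did not set the classes apart. Despite the sort, small intestine 1 and colon 1 held 353 and 234 endothelial cells, against 4 and 22 in the replicate 2 libraries.

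Over all kept cells, *Ereg* had 39116 UMIs and was found in 32.8% of cells. *Nrg1* had 9536 UMIs (9.09% of cells), *Areg* 4777 (4.82%), *Hbegf* 2476 (4.94%) and *Btc* 1528 (4.44%). *Tgfa* had 15 UMIs in 14 cells. It was at 0 UMIs in PDGFRαhi FB, PDGFRαlo FB and SMC of all 4 libraries and had 1 UMI in CD81+ FB of small intestine 2. Endothelial cells held 2, 0, 4 and 1 UMIs. In the colon libraries 3 and 3 UMIs fell on 8 and 41 interstitial cells of Cajal (the pacemaker cells of the gut). For PDGFRαhi FB of colon 2, a count of 0 allows a *Tgfa* level of up to 0.235 CPM. *Tgfa* passed no filter on low counts and enters no test, so that at most 5 of the 6 ligands were tested in any comparison.

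**Figure D1:**
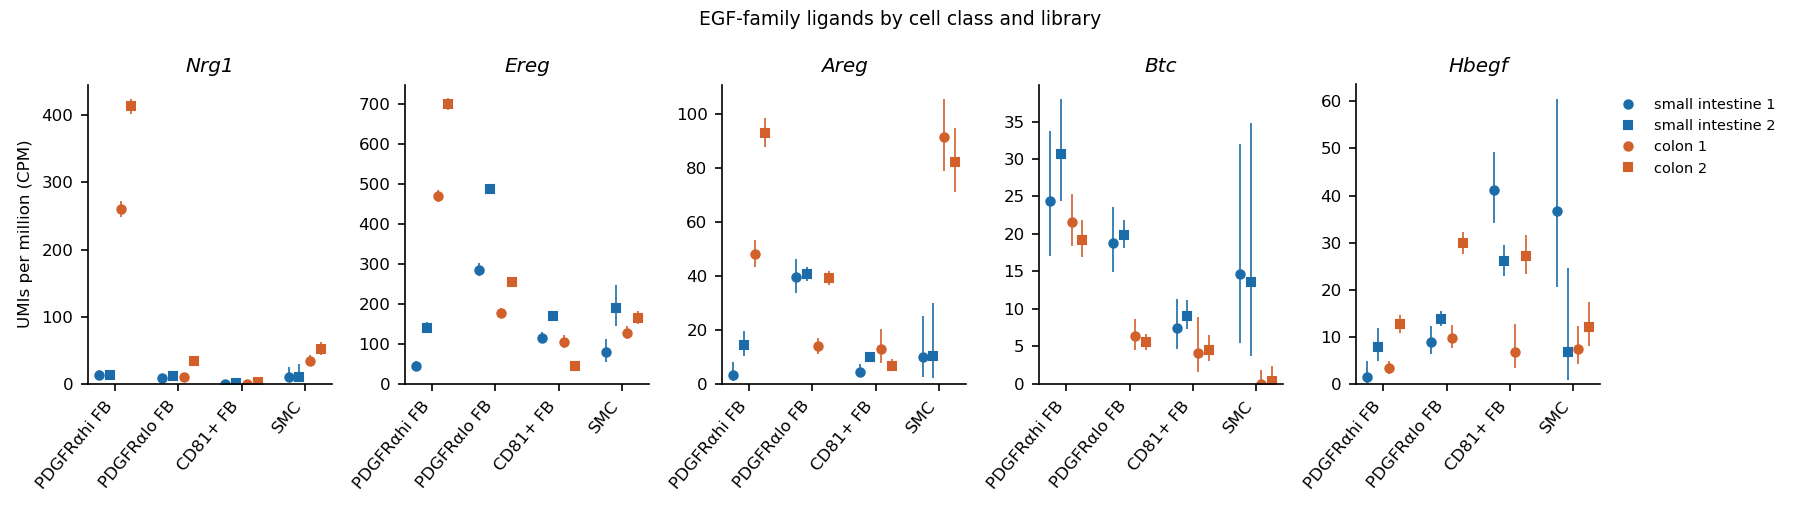
Level of 5 EGF-family ligands in 4 cell classes, as CPM (UMIs per 1000000, linear axis from 0, scaled separately for each gene). Points are libraries (circles replicate 1, squares replicate 2, blue small intestine, orange colon) and bars are 95% exact Poisson intervals, which cover counting error only. *Nrg1* stood at 261 and 413 CPM in colonic PDGFRαhi FB and at or below 51.7 CPM at every other point.

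Whether a class of MSC differed between the intestines was asked from UMIs summed per library and class. In PDGFRαhi FB, the subepithelial class, *Nrg1* had 19, 35, 1892 and 5284 UMIs, or 12.9, 12.9, 261 and 413 CPM. The 95% exact Poisson intervals of the small intestinal levels (7.74 to 20.1 and 9.01 to 18.0 CPM) lay below those of the colonic levels (249.2 to 272.8 and 402 to 425 CPM). Each colon library was 20.2 to 32.1 times above each small intestinal library. *Nrg1* was the ligand called between the intestines in this class, at a log2 fold change of 4.87 (SE 0.42, adjusted p = 0.025, edgeR), 1 of 5 tested against 1.29% of 11713 genes. The call was lost without small intestine 1 (adjusted p = 0.0938) or 2 (0.178), with the fold change at 4.84 and 4.87. To be called between the intestines, a gene had to reach an adjusted p below 0.05 and to change by over 1.5 on the log2 scale.

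The share of PDGFRαhi FB with an *Nrg1* UMI was 9.58%, 2.85%, 46.8% and 43.1%, at median depths of 9266, 2209, 10455 and 3940 UMIs. With each cell thinned to 1000 UMIs the shares were 0%, 1.56%, 16.3% and 22.2%. The 0 of 167 cells of small intestine 1 allow a share of up to 1.80% of cells with a UMI at this thinned depth. As a comparison with another class, endothelial cells had *Nrg1* before thinning in 0 of 353 cells of small intestine 1 and 1 of 234 of colon 1 (0.427%), at median depths of 4409 and 5036 UMIs. In the replicate 2 libraries few endothelial cells were captured, and *Nrg1* was in 1 of 4 cells of small intestine 2 and in 2 of 22 of colon 2 (9.09%, 95% exact binomial interval 1.12% to 29.2%). Whether these UMIs were free RNA or expression was not tested.

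*Ereg* and *Areg* also lay higher in both colon libraries in this class, but these differences were not called. *Ereg* was at 45.4, 139, 469 and 699 CPM, and the colon libraries were 3.37 to 15.4 times above the small intestinal ones (log2 fold change 2.81, SE 0.63, adjusted p = 0.138, edgeR). *Areg* was at 3.38, 14.4, 48.1 and 93.2 CPM, from 5, 39, 349 and 1191 UMIs (log2 fold change 3.06, SE 0.73, adjusted p = 0.152, edgeR). The groups did not overlap for either gene, while the small intestinal libraries lay well apart from each other. At an unadjusted p under 0.05 there were 3 of the 5 ligands, against 1488 of 11713 genes, and DESeq2 called all 3, against 4.49% of genes. *Btc* was at 24.4, 30.7, 21.6 and 19.2 CPM, with the small intestinal libraries 1.13 to 1.59 times above the colonic ones (log2 fold change −0.30, adjusted p = 0.852).

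The summed levels of other gene lists also differed between the intestines in these cells. A list of 10 immediate early genes (*Fos*, *Jun*, *Egr1* and others, induced within minutes of a stimulus) summed to 13078, 21220, 39985 and 41631 CPM in PDGFRαhi FB, and a list of 10 stress genes (*Cxcl1*, *Ptgs2*, *Ccl2* and others) to 1493, 1892, 2418 and 3256 CPM. Gene by gene, edgeR called 0 of the 10 immediate early genes and 1 of the 10 stress genes, against 1.29% of 11713 genes. The median log2 fold changes were 1.52 and 0.11. The part of either list in the levels of *Ereg* and *Areg* between the intestines was not tested. Markers of pericytes ran the other way, at 868 to 1093 CPM in the small intestine and 120 to 139 CPM in the colon. Of the 6 markers 5 were detected in 3 libraries and 6 in colon 2, *Notch3* being at 0 in both small intestinal libraries and *Higd1b* in colon 1. Their part in the ligand levels was not tested. Markers of immune cells, in which *Areg* was at 229, 326, 409 and 0 CPM, summed to 1.72 to 15.6 CPM in PDGFRαhi FB, and their part in the *Areg* levels was not tested.

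In PDGFRαlo FB the order was another. There *Ereg* was at 284, 486, 178 and 255 CPM, with both small intestinal libraries above both colon libraries by 1.12 to 2.73 times (log2 fold change −0.84, SE 0.39, adjusted p = 0.607, edgeR). *Areg* was at 39.7, 40.6, 13.9 and 39.2 CPM, with colon 1 low and the other libraries alike. *Nrg1* was at 8.43, 11.5, 10.2 and 34.6 CPM, with colon 2 alone above the rest. *Btc* was at 18.9, 19.9, 6.35 and 5.55 CPM, so that the small intestinal libraries lay 2.97 to 3.59 times above the colonic ones (log2 fold change −1.73, SE 0.23, adjusted p = 0.0768, edgeR). By edgeR, 0 of 5 ligands were called in PDGFRαlo FB against 0.369% of 12754 genes, with 1 at an unadjusted p under 0.05, *Btc*. DESeq2 called *Btc* and had 2 at an unadjusted p under 0.05.

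CD81+ FB, the class of the crypt base and submucosa, gave 0 of 4 ligands called by edgeR between the intestines against 0.596% of 11235 genes, with 1 ligand at an unadjusted p under 0.05. DESeq2 called 0 and also had 1 at an unadjusted p under 0.05. *Ereg* was at 116, 168, 105 and 44.9 CPM, *Hbegf* at 41.2, 26, 6.85 and 27.2 CPM and *Btc* at 7.44, 9.06, 4.11 and 4.51 CPM. For *Ereg* and *Btc* both small intestinal libraries lay above both colonic ones, and for *Hbegf* colon 1 lay apart from the other libraries.

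Whether the intestine acted on a ligand in the same way in both classes was tested as the difference of the colon effect between PDGFRαhi and PDGFRαlo FB, with library as a block. By this test 4 of 5 ligands were called, all with the more positive colon effect in PDGFRαhi FB, against 11.9% of 12702 genes. For *Btc* this was a smaller fall. Its small intestinal libraries lay above the colonic ones by 1.13 to 1.59 times in PDGFRαhi FB and 2.97 to 3.59 times in PDGFRαlo FB. The difference on the log2 scale was 3.70 for *Ereg* (SE 0.21, adjusted p = 6.41e-08, edgeR), 3.54 for *Areg* (SE 0.39, adjusted p = 8.74e-04) and 1.40 for *Btc* (SE 0.24, adjusted p = 1.25e-04). For *Nrg1* it was 3.80 (SE 0.52, adjusted p = 0.0152), a call that was lost without small intestine 1 (adjusted p = 0.296) or 2 (0.475), with classes taken from clusters (0.149) and with doublets kept (0.0542). The colon libraries thus had the higher *Ereg* in PDGFRαhi FB and the lower in PDGFRαlo FB, whereas *Areg* in PDGFRαlo FB of colon 2 was level with the small intestine. The ratio of PDGFRαhi to PDGFRαlo FB in a library was 0.159 and 0.287 for *Ereg* in the small intestine and 2.64 and 2.75 in the colon, and for *Areg* 0.0853 and 0.355 against 3.45 and 2.38. The same term was called for 5 of 10 stress genes and 8 of 10 immediate early genes, all in the same direction as the ligands.

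**Figure D2:**
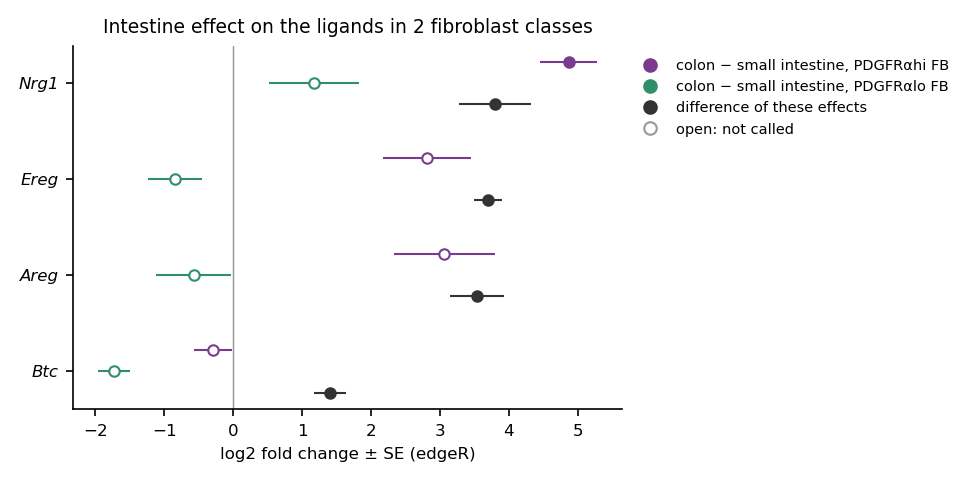
Difference between the intestines for 4 ligands on the log2 scale, with SE (edgeR), in PDGFRαhi FB (purple) and PDGFRαlo FB (green), and the difference of these effects (black); filled points were called and open points were not. *Ereg* lies at 2.81 in PDGFRαhi FB and −0.84 in PDGFRαlo FB, and the difference of 3.70 has the smallest SE of the 4.

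For *Nrg1*, *Ereg*, *Areg* and *Btc*, the class that held most UMIs differed between the intestines. PDGFRαhi FB held 28.8%, 9.89%, 85.7% and 76.5% of the *Nrg1* UMIs of the 4 libraries, and 3.27%, 2.52%, 62.2% and 53.8% of those of *Ereg*. PDGFRαlo FB held 55.9% and 72.5% of the *Ereg* UMIs of the small intestine against 20.9% and 31.2% in the colon. Of the *Areg* UMIs, PDGFRαhi FB held 1.52% and 3.18% in the small intestine and 47.7% and 47.8% in the colon. *Btc* UMIs were 20.8%, 11.7%, 71.4% and 58.0% in PDGFRαhi FB, although its level in this class was not higher in the colon. Of the *Hbegf* UMIs, PDGFRαlo FB held 8.91%, 47.3%, 23.7% and 52.9%, the largest share in both replicate 2 libraries. These shares also depend on how many cells of a class were captured: PDGFRαhi FB were 167 of 1828, 1157 of 14350, 663 of 2399 and 3078 of 12108 cells.

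**Figure D3:**
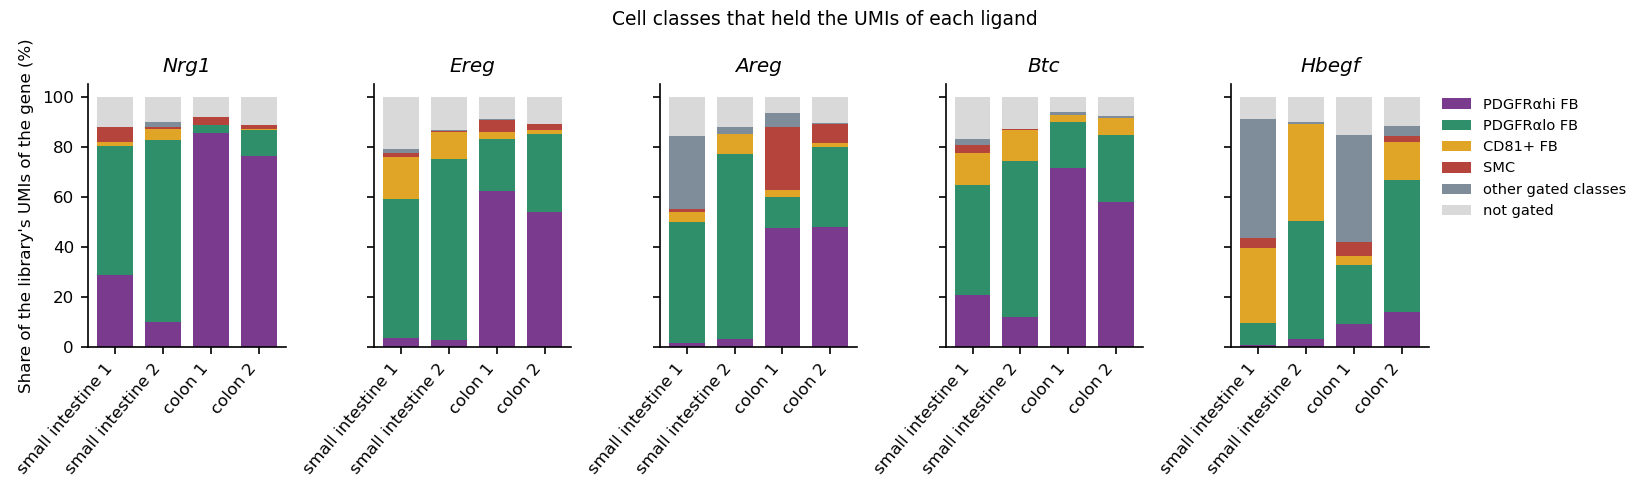
Share of the UMIs of each ligand in a library (y axis, %, bars stacked to 100) that fell in each cell class, for the 4 libraries. PDGFRαhi FB (purple) held 62.2% and 53.8% of *Ereg* UMIs in the colon and 3.27% and 2.52% in the small intestine, and endothelial and other gated classes (grey-blue) stand out for *Hbegf* in both replicate 1 libraries.

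Each class was then compared with the mean of the other 3 in a single model with library as a block. PDGFRαhi FB had 3 of 5 ligands called, against 30.8% of 11681 genes. *Nrg1* was higher (log2 fold change 3.62, SE 0.56, adjusted p = 6.72e-04, edgeR), as was *Btc* (1.96, SE 0.34, adjusted p = 8.46e-04), and *Hbegf* was lower (−1.44, SE 0.44, adjusted p = 0.028). The call of *Hbegf* was lost without a filter on low counts (0.0581), without small intestine 2 (0.108) and without colon 1 (0.117). *Btc* was the highest in PDGFRαhi FB of the 4 classes in every library, and 3.28 to 5.26 times above CD81+ FB. *Nrg1* was 25.5 and 12 times above PDGFRαlo FB in the colon but 1.53 and 1.12 times in the small intestine.

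PDGFRαlo FB had 0 of 5 ligands called by edgeR, against 14.9% of 11681 genes. The count was also 0 at an unadjusted p under 0.05, and 0 by DESeq2 at either threshold. Among classes of the small intestine with at least 20 cells, *Ereg* was highest in PDGFRαlo FB, at 385 ± 142 CPM (mean ± SD, n = 2). In the colon PDGFRαlo FB came second, at 216 ± 54.4 CPM (n = 2), below PDGFRαhi FB at 584 ± 163 CPM (n = 2). Against the mean of the other classes, *Ereg* had a log2 fold change of 0.86 (SE 0.57, adjusted p = 0.382, edgeR).

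CD81+ FB had 3 of 5 ligands called, against 35.4% of 11681 genes. *Nrg1* was lower (log2 fold change −4.19, SE 0.89, adjusted p = 4.41e-03, edgeR), with 1, 16, 0 and 21 UMIs in 340, 3102, 169 and 1577 cells, a call lost without colon 2 (adjusted p = 0.0864). The share of CD81+ FB with an *Nrg1* UMI was 0.294%, 0.419%, 0% and 0.698%, at median depths of 8928, 3078, 8770 and 4075 UMIs, and whether these UMIs were expression or free RNA was not tested. *Areg* was lower (−2.08, SE 0.73, adjusted p = 0.0465), a call lost when any 1 library was left out, at adjusted p of 0.0641 to 0.248, and without a filter on low counts (0.0886). *Hbegf* was higher (1.42, SE 0.39, adjusted p = 0.0149), a call lost without small intestine 2 (adjusted p = 0.102).

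In SMC 1 of 5 ligands was called, against 38.4% of 11681 genes. It was *Btc*, at 6, 4, 0 and 1 UMIs (log2 fold change −2.15, SE 0.66, adjusted p = 0.0213, edgeR), a call lost without colon 1 (adjusted p = 0.126) or colon 2 (0.154). *Areg* in SMC was at 9.79, 10.2, 91.7 and 82.3 CPM. The small intestinal values rest on 4 and 3 UMIs in 65 and 133 cells, and SMC were not compared between the intestines by a test.

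*Hbegf* had its highest levels outside the FB. It was at 56.6, 78.2, 122 and 63.1 CPM in pericytes, from 4 to 31 UMIs in 30 to 43 cells per library, and at 82.8, 50.1 and 165 CPM in endothelial cells of small intestine 1, colon 1 and colon 2. In PDGFRαhi FB it was at 1.35, 7.76, 3.31 and 12.6 CPM and in PDGFRαlo FB at 8.93, 13.9, 9.76 and 29.8 CPM. In the colon the ranges of PDGFRαlo FB, CD81+ FB, SMC and PDGFRαhi FB overlapped from each class to the next. Within each colon library, PDGFRαhi FB lay below CD81+ FB (6.85 and 27.2 CPM), and these below PDGFRαlo FB. SMC, at 7.43 and 12.1 CPM, had no fixed place and lay above PDGFRαhi FB in colon 1 and below in colon 2. *Areg* was high in the few immune cells that passed the CD45- sort, at 43, 25, 38 and 0 UMIs in 40, 23, 11 and 9 cells.

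Colonic PDGFRαhi FB often carried a UMI of more than 1 ligand. At least 1 ligand was found in 41.9%, 26.0%, 77.7% and 68.4% of PDGFRαhi FB and at least 2 in 7.78%, 2.59%, 42.4% and 33.9%. Thinned to 1000 UMIs, the shares with at least 1 were 5.99%, 15.1%, 32.9% and 42.0%, and those with at least 2 were 0.599%, 0.951%, 7.54% and 12.7%. In colonic PDGFRαlo FB, unthinned, at least 2 were found in 8.38% and 9.05% of cells, and in colonic CD81+ FB in 2.96% and 1.65%. In PDGFRαlo FB the thinned shares were 21.9% and 31.2% in the small intestine, and 12.6% and 19.96% in the colon.

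Other genes of the pathway were read from fixed lists, in which the counts called are to be read against 30.8% of 11681 genes in PDGFRαhi FB, 14.9% in PDGFRαlo FB, 35.4% in CD81+ FB and 38.4% in SMC. Of the receptors, *Egfr* was higher in CD81+ FB (log2 fold change 1.63, SE 0.15) and PDGFRαlo FB (0.70, SE 0.16) and lower in SMC (−2.75, SE 0.24) than in the mean of the other classes, while *Erbb2* was not called in any class and *Erbb3* and *Erbb4*, the receptors of neuregulin 1, were under 1 CPM in all 4 classes of every library and were not tested. Of 5 other ligands 1 was tested, *Nrg2*, a relative of neuregulin 1, and it was higher in PDGFRαhi FB (2.94, SE 0.21). Its level there was 35.9, 27.0, 30.2 and 29.2 CPM, about even across the intestines, against 0.744 to 2.31 CPM in PDGFRαlo FB.

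Of 7 feedback inhibitors of the pathway, 4 were higher in PDGFRαhi FB, *Spry1* (log2 fold change 2.15), *Spry2* (1.41), *Spry4* (3.07) and *Dusp6* (2.23), which restrain ERK signalling, and 2 were lower, *Errfi1* (−1.12) and *Lrig3* (−2.12), whose proteins act at the receptor. Of the 4 genes for release of ligands, *Rhbdf2* was higher there (0.88) and *Adam17* lower (−0.45). In PDGFRαlo FB 2 inhibitors and *Adam17* were higher, in CD81+ FB 2 inhibitors were higher and 2 lower, with *Adam17* and *Rhbdf1* higher, and in SMC 4 inhibitors and both of these release genes were lower. With 7 inhibitors and 4 release genes, several of these counts lie near the share of all genes. Between the intestines in PDGFRαhi FB, the median log2 fold change was 0.23 over the 2 receptors tested, −0.08 over the 4 release genes and −0.06 over the 7 inhibitors, against 0.01 over all genes tested.

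Whether *Ereg* and *Areg* follow stress genes within a class was asked by splitting cells of a library. Each cell was thinned to 1000 UMIs and cells with at least 1 UMI of *Cxcl1* were set against cells with 0, with library as a block. In PDGFRαlo FB, *Ereg* was at 431, 640, 178 and 280 CPM in cells with *Cxcl1* and at 186, 270, 114 and 176 CPM in cells without. It was higher in cells with *Cxcl1* in 4 of 4 libraries (log2 fold change 1.103, SE 0.093, adjusted p = 1.18e-12, edgeR). *Areg* was at 38.8, 46.8, 26.1 and 50.3 CPM against 25.2, 14.7, 17.6 and 31.2 CPM, also higher in 4 of 4 (1.24, SE 0.16, adjusted p = 1.23e-07). In small intestine 1 its levels rest on 9 UMIs in 232 cells against 8 in 317. In colon 1 they rest on 6 in 230 against 9 in 510. *Hbegf* was higher as well (1.09, SE 0.20, adjusted p = 1.33e-04), in 3 of 4 libraries. Thus 3 of 5 ligands were called by edgeR, against 5.81% of 9278 genes, and DESeq2 called 2 of the 5.

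*Btc* (−0.36, adjusted p = 0.445) and *Nrg1* (0.22, adjusted p = 0.654) were not called in this split. The sign of the *Nrg1* value turned without thinning. In the same split 7 of 7 stress genes tested and 10 of 10 immediate early genes were higher in cells with *Cxcl1*, with median log2 fold changes of 1.67 and 1.02 against −0.02 over all genes tested. The call of *Areg* was lost in unthinned cells (adjusted p = 0.104).

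PDGFRαhi FB showed the same pair of genes. *Ereg* was at 75, 261, 627 and 837 CPM in cells with *Cxcl1* and at 23.6, 94.1, 326 and 484 CPM in cells without (log2 fold change 1.06, SE 0.11, adjusted p = 4.03e-15, edgeR). *Areg* was at 25, 22.9, 56.3 and 136 CPM against 0, 4.95, 49.9 and 63.5 CPM (1.201, SE 0.18, adjusted p = 5.41e-08). Both were higher in 4 of 4 libraries. For *Areg* in small intestine 1 this rests on 1 UMI, against 0 in 127 cells without *Cxcl1*. In colon 1, 3.65% of cells without *Cxcl1* held an *Areg* UMI. The share there was 1.69%, 1.75% and 3.85% in cells with 1, 2 to 4 and 5 or more UMIs of *Cxcl1*. In all, 2 of 4 ligands were called, against 5.66% of 6043 genes. *Btc* (−0.57, adjusted p = 0.399) and *Nrg1* (0.13, adjusted p = 0.735) were not. The call of *Areg* was lost by DESeq2 (adjusted p = 0.0796) and in unthinned cells (0.244).

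In CD81+ FB the ligand that passed the filter was *Ereg*, at 127, 232, 97.2 and 52.7 CPM in cells with *Cxcl1* and 65.9, 93.5, 61.9 and 23.7 CPM in cells without (log2 fold change 1.297, SE 0.15, adjusted p = 4.57e-13, edgeR), higher in 4 of 4 libraries. It was called, 1 of 1, against 6.40% of 4763 genes. Before thinning, cells with *Cxcl1* had the higher median depth in every library and FB class (8752 against 6761 UMIs in PDGFRαlo FB of small intestine 1, for instance) save PDGFRαhi FB of small intestine 1 (9118 against 9298 UMIs). The part of other differences between these cells was not tested.

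**Figure D4:**
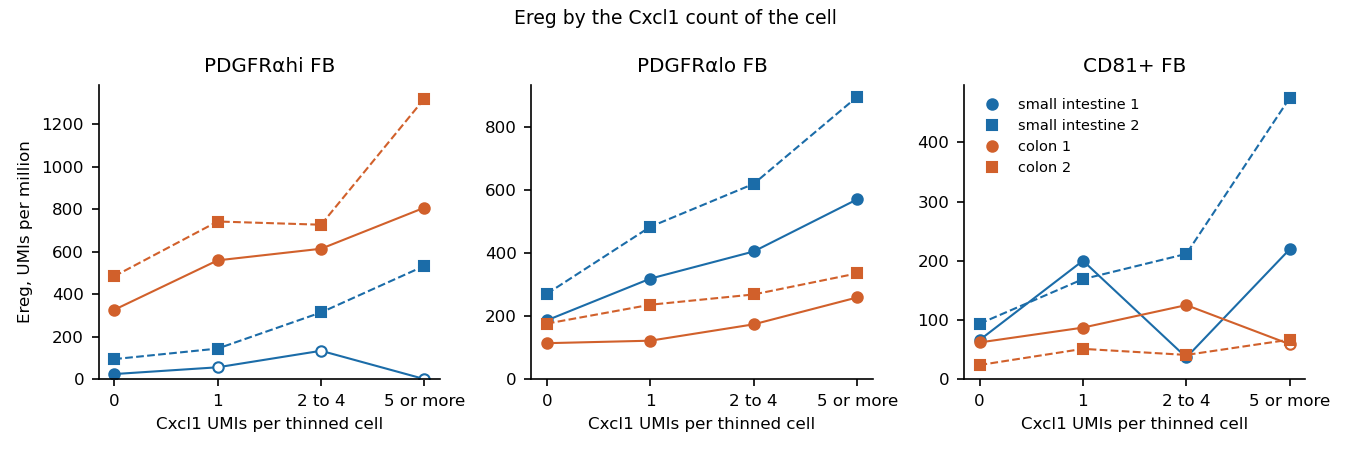
*Ereg* level (y axis, UMIs per 1000000) in thinned cells with 0, 1, 2 to 4 and 5 or more UMIs of *Cxcl1* (x axis), by FB class, with a line for each library; open points rest on fewer than 20 cells. In PDGFRαlo FB all 4 lines rise at each step, from 114 to 270 CPM at 0 UMIs to 259 to 894 CPM at 5 or more.

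In PDGFRαlo FB the level of *Ereg* was also graded. In cells with 0, 1, 2 to 4 and 5 or more UMIs of *Cxcl1* small intestine 1 gave 186, 318, 404 and 569 CPM and small intestine 2 gave 270, 482, 618 and 894 CPM. The steps of colon 1 were 114, 122, 173 and 259 CPM, and those of colon 2 were 176, 236, 268 and 335 CPM. In PDGFRαhi FB it rose at each step in small intestine 2 (94.1, 144, 314 and 533 CPM) and colon 1 (326, 559, 614 and 808 CPM) but not in small intestine 1 (23.6, 55.6, 133 and 0 CPM, the last 3 from under 20 cells each) or colon 2 (484, 742, 727 and 1322 CPM). In CD81+ FB the steps were not regular in 3 of 4 libraries. Cell by cell the relation was weak: over all cells of a class in a library, r between *Ereg* and *Cxcl1* was 0.0398 to 0.205 in the 12 library and class groups, a description of sparse counts of cells that share a library. For *Areg* and *Cxcl1*, r was −0.0044 to 0.111 in the groups with an *Areg* UMI. The *Areg* level in PDGFRαlo FB rose at each step of *Cxcl1* in small intestine 2 alone (14.7, 35.9, 42.0 and 71.4 CPM).

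The *Cxcl1* effect on *Ereg* in PDGFRαlo FB was smaller in the colon by 0.54 on the log2 scale, a value that was not called (SE 0.16, adjusted p = 0.148, edgeR). By this test of the difference between the intestines, 0 of 5 ligands were called, against 0.392% of 10197 genes, with 2 at an unadjusted p under 0.05. DESeq2 called 0 and had 1 at an unadjusted p under 0.05.

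Split by *Fos*, an immediate early gene, PDGFRαlo FB gave 2 of 2 ligands called, against 5.14% of 6230 genes. *Ereg* was at 344, 514, 157 and 247 CPM in cells with *Fos* and at 92.4, 177, 45.8 and 72 CPM in cells without (log2 fold change 1.85, SE 0.14, adjusted p = 7.92e-08, edgeR). *Areg* was at 37.2, 35.5, 20.4 and 44.1 CPM against 8.4, 11.8, 19.6 and 14.9 CPM (1.62, SE 0.31, adjusted p = 2.57e-03), with colon 1 almost even and the call lost without colon 2 (adjusted p = 0.0648). A split of the same class by *Fgfr2*, a receptor gene that marks a subset of it, was run for contrast. It gave 0 of 2 ligands called by edgeR, against 1.72% of 6437 genes, with 0 at an unadjusted p under 0.05 and 0 by DESeq2 at either threshold. *Ereg* was at 207, 524, 153 and 343 CPM with *Fgfr2* and 306, 483, 132 and 226 CPM without.

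Within colonic PDGFRαhi FB the study sets subsets apart by *Thbd* (thrombomodulin, CD141) and *Cd9* (a tetraspanin). The splits were taken from the study's description of the colonic samples and are not independent evidence for *Nrg1*. The fits here also cover the small intestinal libraries, for which the study describes no such subsets. In cells with a *Thbd* UMI, *Nrg1* was at 0, 20.8, 75.3 and 116 CPM, against 0, 11.1, 387 and 459 CPM in cells without (log2 fold change −1.98, SE 0.35, adjusted p = 0.0625, edgeR). *Ereg* was at 12.7, 133, 283 and 290 CPM against 56.8, 154, 498 and 736 CPM, lower with *Thbd* in 4 of 4 libraries (−0.99, SE 0.16, adjusted p = 1.23e-03). *Ereg* was 1 of 4 ligands called, against 2.95% of 5929 genes, and the call was lost by DESeq2 (adjusted p = 0.114), with classes taken from clusters (0.439) and without colon 2 (0.214).

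*Areg* was at 0, 15.2, 24.1 and 60.1 CPM in cells with *Thbd* against 11.4, 6.36, 78.5 and 99.1 CPM (−0.82, adjusted p = 0.0507). *Btc* had another order, at 30.1 and 38.0 CPM with *Thbd* against 15.1 and 17.8 CPM without in the colon libraries, but at 12.7 and 32.2 against 34.1 and 35.0 CPM in the small intestine (0.56, adjusted p = 0.464).

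Split by *Cd9*, 2 of 2 ligands were called, against 1.67% of 5018 genes. *Nrg1* was at 0, 23.8, 311 and 476 CPM in cells with *Cd9* and 0, 14.2, 181 and 260 CPM in cells without (log2 fold change 0.85, SE 0.13, adjusted p = 2.53e-06, edgeR). *Ereg* was at 32.3, 155, 433 and 754 CPM against 36.8, 143, 364 and 481 CPM (0.48, SE 0.11, adjusted p = 8.99e-03). DESeq2 called neither (adjusted p = 0.435 and 0.999), and that of *Ereg* was also lost without a filter on low counts (0.264), without colon 1 (0.0867) or without colon 2 (0.999).

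**Figure D5:**
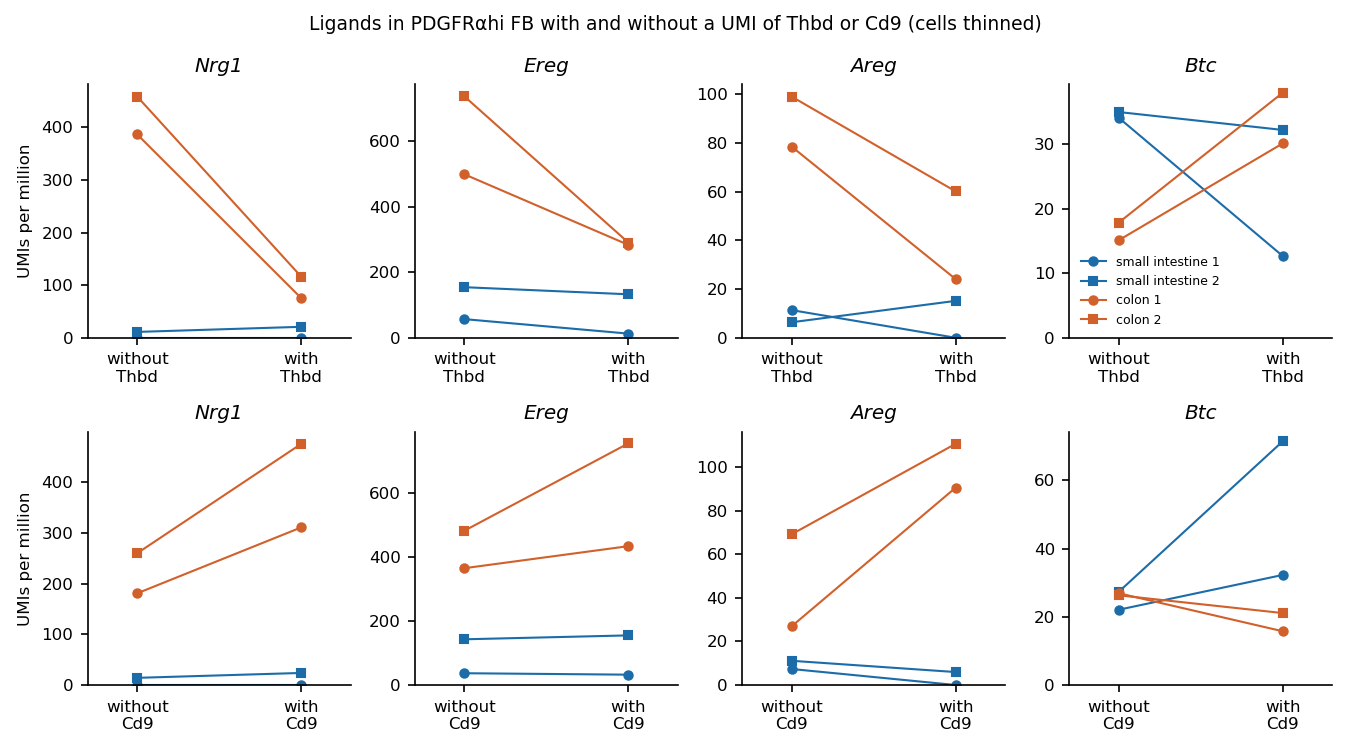
Level of 4 ligands (y axes, UMIs per 1000000 in thinned cells, from 0) in PDGFRαhi FB without and with a UMI of *Thbd* (top) or *Cd9* (bottom), with a line for each library. In the colon libraries *Nrg1* falls from 387 and 459 CPM without *Thbd* to 75.3 and 116 CPM with it, while *Btc* runs the other way.

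Colonic PDGFRαhi FB with an *Nrg1* UMI, 108 and 683 thinned cells, are described here with no test, as cells without one numbered 555 and 2395. *Ereg* was at 806 and 1240 CPM in cells with *Nrg1* against 310 and 416 CPM in cells without, and *Areg* at 139 and 215 CPM against 34.2 and 50.5 CPM. *Ptgs2*, which encodes the inducible cyclooxygenase, was at 1268 and 1097 CPM against 378 and 348 CPM, and *Il1rl1*, the receptor of interleukin 33, at 407 and 221 CPM against 61.3 and 28.0 CPM. *Cxcl1* was at 852 and 917 CPM against 555 and 922 CPM, with colon 2 about even. *Btc* was at 0 and 10.2 CPM against 27.0 and 28.0 CPM.

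The genes whose levels ran most like those of each ligand were read over 27 library and class sums, among 8801 genes, as Pearson r of log2(CPM + 10). For *Nrg1* they were *Nxf7* (r = 0.861), *Rhox5* (0.825) and *Foxl1* (0.814), the last a gene of the gate for PDGFRαhi FB. For *Ereg* they were *Ptgs2* (0.906), *Adamdec1* (0.901) and *Ncam1* (0.892), and for *Areg*, with lower values, *Tox* (0.730), *Gm2a* (0.719) and *Aff3* (0.696). *Btc* ran with *Adcy2* (0.847), *Tenm3* (0.814) and *Lrrk1* (0.809), and *Hbegf* with *Arid5a* (0.893), *Pfkfb3* (0.855) and *Dusp8* (0.837). The points share libraries and classes, and r is a description.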

How the data were processed

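The deposited values are UMI counts for 28692 genes in each cell barcode, not normalized. Reads had been aligned to mm10 by the authors with Cell Ranger, version 3.0.2 for replicate 1 and 3.1.0 for replicate 2 per the file headers. The labels also name Seurat 3. The kit (3′ or 5′) of each library is not stated. P-values measure the spread between libraries of pooled mice.

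Kept barcodes had 500 genes or more, 1000 UMIs or more and 10% or less of mitochondrial UMIs. Doublets were called with scrublet (scanpy 1.11.5, Python 3.11.15; 0.8% expected per 1000 cells) and 6, 913, 32 and 580 were removed. In small intestine 1 the caller marked 0.327% of barcodes. A cell took a class by its mean ln(1 + counts per 10000) of marker genes, with FB at 1.5 or more for pan-FB genes. The score had to pass a high value for its class and for no other class. PDGFRαlo FB were the FB whose scores stayed under a low value for every class. Cells of the other classes were not held to these low values. Both values were set after the scores had been seen. The 3117 FB between them, 277 cells of mixed class and 158 of none stayed out of the classes. No score for a ligand was used.

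Counts summed per library and class, or per library and side of a split (thinned to 1000 UMIs per cell, fixed seed), were tested with edgeR 4.0.16 in R 4.3.3 (filterByExpr, TMM, robust quasi-likelihood fit) over all genes, with Benjamini-Hochberg adjustment. Comparisons of intestines carried no block, and others had library as a block. SE is the log2 fold change divided by the root of F. The 6 ligands were named in every comparison, other listed genes where called, and for likeness the 3 genes of highest r. Members, lists and splits were chosen with earlier results of these data known. The steps were tested on simulated counts. Motifs and RefSeq promoters are of GRCm38.p6. No column of the matrices was left unused (0).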

Additional observations from a re-analysis of the deposited data

Results flagged for a closer look

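The difference of the colon effect between PDGFRαhi FB and PDGFRαlo FB was past the threshold of edgeR for 4 ligands, which is why they stand here. On the log2 scale it was 3.70 for *Ereg* (adjusted p = 6.41e-08), 3.54 for *Areg* (adjusted p = 8.74e-04), 1.40 for *Btc* (adjusted p = 1.25e-04) and 3.80 for *Nrg1* (adjusted p = 0.0152). *Ereg* and *Areg* were higher in colonic than in small intestinal libraries in PDGFRαhi FB, while in PDGFRαlo FB *Ereg* was lower in both colon libraries and *Areg* in colon 1 alone. *Btc* was about even in PDGFRαhi FB and 2.97 to 3.59 times lower in colonic PDGFRαlo FB. *Nrg1* was higher in both colon libraries in PDGFRαhi FB, while in PDGFRαlo FB colon 2 alone lay above the rest. Leaving out each library in turn gave 3.398 to 4.25 for *Ereg*, 3.09 to 5.14 for *Areg* and 1.33 to 1.58 for *Btc*, all called, and 3.45 to 4.53 for *Nrg1*, with adjusted p from 5.58e-47 to 0.475. By this term 8 of 10 immediate early genes and 5 of 10 stress genes were also called, all in the same direction, against 11.9% of 12702 genes. The part of these genes in the ligand values was not tested.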

How the results depend on the processing

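With 2 libraries per intestine, a fit without 1 library leaves a group with a single sample, which is assumed to vary like the others. Under the alternatives, 164 recounts of called ligands stayed within 1.5 times of the value given and 39 did not, and of the refits of a named log2 fold change 455 kept direction and side of the threshold, 30 lost the call, 21 gained it and 4 changed sign. Of the recomputed mean CPM levels, 140 moved by less than the spread between replicates and 20 by more, 7 with classes taken from clusters, 6 with the stricter gate, 5 with at least 1000 genes per cell and 2 with doublets kept. *Ereg* in small intestinal SMC moved 2.18 times, to 292 CPM, with clusters. The reversals concern *Nrg1*: by *Cxcl1* in PDGFRαlo FB (0.22), −0.15 with cells thinned to 2000 UMIs and −0.26 with unthinned cells; by *Cxcl1* in PDGFRαhi FB, −0.0056 to 0.17 in the 3 fits without a library that kept the gene; and between the intestines in PDGFRαlo FB, −0.060 to 1.80.

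Between the intestines in PDGFRαhi FB (1 ligand called), DESeq2 gave 3, no filter on low counts 2 and a replicate block 3, and leaving out a library gave 0 to 3 (0 without small intestine 1 or 2). In PDGFRαlo FB (0 called), DESeq2, no filter and the replicate block each gave 1, *Btc*. The number alone does not pair the libraries (with 2 pairs, the deviations of same-numbered libraries correlated at 0.739, 0.774 and 0.658 in PDGFRαhi, PDGFRαlo and CD81+ FB, and the Cell Ranger version goes with the number), and *Ereg* and *Areg* in PDGFRαhi FB were called under the replicate block (adjusted p = 5.83e-09 and 1.18e-09). Over all genes, calls in these 3 classes were 151, 47 and 67, against 888, 644 and 390 with the replicate block and 576, 313 and 442 without a filter. DESeq2 gave 306 genes higher and 220 lower in the colon in PDGFRαhi FB, 387 calls in PDGFRαlo FB and 229 in CD81+ FB. The edgeR calls fell to 0 in PDGFRαhi FB without either small intestinal library, and to 6 in PDGFRαlo FB without small intestine 2.

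Between classes, leaving out a library gave 1 to 2 ligands in CD81+ FB (3 called) and 0 to 1 in SMC (1 called).

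In the *Cxcl1* split of PDGFRαhi FB (2 called), DESeq2 gave 1, unthinned cells 1 and leaving out a library 1 to 2, and in CD81+ FB (1 called) unthinned cells gave 2. The *Fos* split (2 called) gave 4 with no filter, 1 with a stricter gate, 1 with at least 1000 genes per cell, 4 unthinned, 1 with at least 2 UMIs of *Fos* and 1 to 2 without a library. The *Thbd* split (1 called) gave 0 by DESeq2, 2 with RLE size factors, 3 with no filter, 3 with doublets kept, 2 with cells thinned to 2000 UMIs, 2 unthinned, 2 with at least 2 UMIs of *Thbd* and 0 to 3 without a library. The *Cd9* split (2 called) gave 0 by DESeq2, 1 with no filter and 0 to 3 without a library. For the difference of the *Cxcl1* effect between the intestines (0 called), thinning to 2000 UMIs gave 1 and unthinned cells 1, *Areg* in both. Over all genes, the calls moved from 539 to 234 by DESeq2 and 815 unthinned in the *Cxcl1* split of PDGFRαlo FB, and from 342 to 136 and 615 in PDGFRαhi FB, from 305 to 113 and 585 in CD81+ FB, from 175 to 15 and 772 in the *Thbd* split, and from 84 to 1 by DESeq2 in the *Cd9* split. The cause of these shifts was not tested. Shallow depth limits *Areg*, *Hbegf* and *Btc*, which rest on a few UMIs per library in small classes.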

Other observations

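In small intestine 1, 1 epithelial cell held 53 *Areg* UMIs, 16.1% of all *Areg* UMIs of that library. The few glial cells, 6, 1, 9 and 1 per library, had *Hbegf* at 348, 0, 281 and 352 CPM from 14, 0, 18 and 1 UMIs. *Nrg1* in SMC was at 9.79, 10.2, 34.2 and 51.7 CPM, above in both colon libraries, from 4, 3, 69 and 120 UMIs, and was not tested between the intestines.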
